A study of Drosophila melanogaster with 6 samples.

Results

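The levels of 10 genes of the protein folding system were followed through the RNA sequencing of fly heads: *Hsc70-4*, *Hsc70-3*, *Hsc70-5*, *Hsc70-1*, *Hsp83*, *Hsp60A*, *DnaJ-1*, *stv*, *Hop* and *Hsf*. They were chosen by name, as the rows of the count files that carry these FlyBase symbols, and make up 10 of the 17559 genes counted. All 10 had a row. *Hop* was found under its newer name *Stip1* (FBgn0024352), with upper and lower case kept apart because *hop* is an unrelated kinase gene. The 6 libraries are the female control heads of the study, which set RNAi knockdown of single fly genes in neurons against flies with the driver and no RNAi construct. The libraries with knockdown are not analysed here. The RT control (n = 3) carried *w[1118]*, *Elav-GAL4* over *w[1118]* and was reared at room temperature. The Dicer2 25C control (n = 3) was given with the same X chromosome genotype and 1 copy of *UAS-Dicer2*, and was reared at 25°C. The paper's list of drivers has an X-linked *Elav-GAL4* stock with *UAS-Dicer2* that also carries a GFP transgene. Whether these flies carried it was not checked. Both were crossed to the stock v60000 of the Vienna collection, and *Elav-GAL4* drives transgenes in neurons, while the RNA came from whole heads in pools of 35 to 40 F1 females, whose age is not given in the sources used here. Dicer2 and temperature thus change together between the groups, as does the driver stock, and their parts cannot be told apart.

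Proteins of the Hsp70 family bind exposed stretches of unfolded proteins and release them with a cycle of ATP hydrolysis and nucleotide exchange. J-domain proteins speed up the hydrolysis, and BAG-domain proteins help with the exchange. Hsp90 takes over partly folded clients, handed on by an organizing protein that holds both chaperones. Most of these genes run in every unstressed cell, in contrast to the inducible heat shock genes, and some are raised further by heat through Hsf, the transcription factor that binds heat shock elements upstream of its targets.

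Between 18.7 and 42.5 M reads were counted on genes per library, 33.9 to 42.5 M in the RT control and 18.7 to 25.2 M in the Dicer2 25C control. Levels are given as CPM, the count of reads relative to the library total after TMM scaling (counts per M reads). *Dcr-2*, the check of the labels, was at 58.03 ± 3.03 CPM in the RT control and 572 ± 57.6 CPM in the Dicer2 25C control (SD, n = 3 each). The head markers were present in all libraries, and the 4 ovary and germ line genes summed to at most 0.237 CPM in the RT control and 0.576 CPM in the Dicer2 25C control. The 5 photoreceptor genes summed to between 41800 and 42856 CPM in the RT control and to 51967, 52161 and 63720 CPM in Dicer2 25C control replicates 1, 2 and 3, a sum led by *ninaE*, the main rhodopsin gene, whose level in replicate 3 was 52700 CPM while the other 4 genes lay there within the range of the RT control. The 5 neuron genes summed to between 3636 and 3801 CPM in the RT control and to 4889, 4596 and 3577 CPM in the Dicer2 25C control. The 4 muscle genes summed to between 3689 and 4809 CPM in the RT control and to 7805, 7710 and 4052 CPM in the Dicer2 25C control. The 4 glia genes summed to between 1833 and 2189 CPM in the RT control and to 1366, 1403 and 1796 CPM in the Dicer2 25C control, so that replicate 3 of the Dicer2 25C control stood apart from its group in all 4 of these sums. Of the 3 head fat body genes, *apolpp* was at 2891, 2676 and 2662 CPM in the RT control and at 1740, 1950 and 1700 CPM in the Dicer2 25C control, while *Lsp2* and *to* overlapped between the groups. The part of cell composition in the differences below was not tested, and in whole heads fewer cells of a type and less RNA per cell cannot be told apart.

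RT control replicate 3 stood apart at many of the inducible heat shock genes. Of 14 listed, 8 passed the expression filter. Of these, 5 were more than 2 times as high in that library as in every other, against 0.128% of the 10187 genes tested. Its marker sums were 3636 CPM for neurons, 42634 CPM for photoreceptors, 2148 CPM for glia and 4747 CPM for muscle. *Hsp68*, an inducible Hsp70 gene, was at 22.6, 112 and 2051 CPM in RT control replicates 1, 2 and 3 and at 9.95, 11.7 and 28.7 CPM in the Dicer2 25C control. *Hsp26*, a small heat shock gene, was at 7.14, 154 and 1057 CPM in the RT control and at 5.76, 6.47 and 12.5 CPM in the Dicer2 25C control. *Hsp70Bb*, named after its values were seen, was at 0.61, 5.45 and 69.1 CPM in the RT control and at 54.9, 47.9 and 43.2 CPM in the Dicer2 25C control, so it did not follow this pattern against every library. *w*, the eye colour gene whose mutant allele the genotypes carry, was also looked at after its values were seen, at 40.2, 54.0 and 810 CPM in the RT control and at 88.6, 86.7 and 103 CPM in the Dicer2 25C control. The same library was thus the highest for *w*, at 7.84 times the next, and whether it differs in genotype or handling was not tested. Which allele or transgene the reads of *w* come from was not tested either. Differences of the members between the groups that rest on RT control replicate 3 are therefore given with and without it. Group means and SDs use all 3 libraries.

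Among the 10 genes, the widest swing lay within 1 group and not between the groups. *Hsp83*, *DnaJ-1* and *stv* were each more than 2 times as high in RT control replicate 3 as in every other library, as were 0.128% of the 10187 genes tested (13 genes). The other 7 were not, and *Hsp60A* and *Hsf* were only 1.07 and 1.12 times as high in the highest as in the lowest RT control library. Between the groups, *Hsc70-1* fell by 0.52 on the log2 scale in the RT control (standard error 0.10), with a Benjamini-Hochberg adjusted p of 0.03 in the quasi-likelihood test of edgeR. It was the only 1 of the 10 members with an adjusted p under 0.05 there, against 10.1% of all genes tested. That count is near the share of all genes and is not read as a result about the members. *Hsc70-1* itself no longer passed when RT control replicate 2 or 3, or Dicer2 25C control replicate 1 or 2, was dropped.

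**Figure D1:**
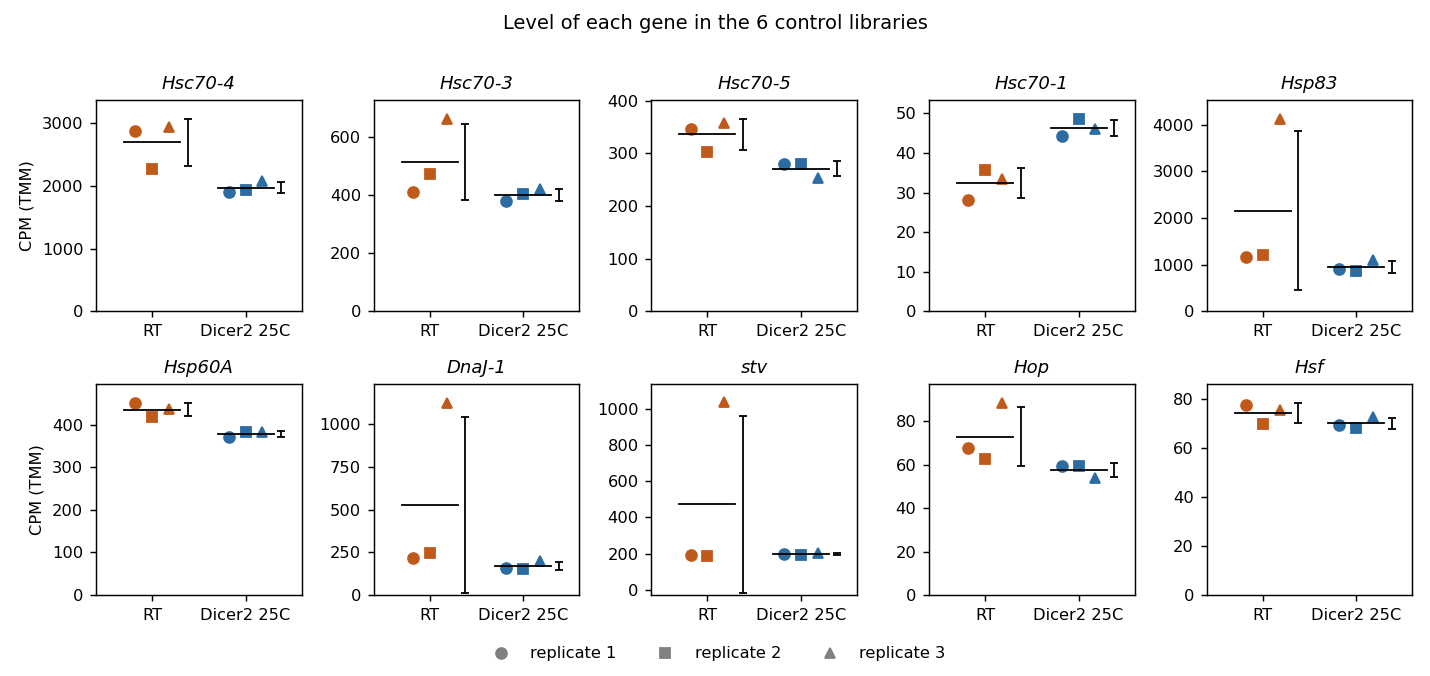
Level of each gene in CPM (vertical axis, own scale per panel) in the RT control and the Dicer2 25C control. Each point is 1 library, with a marker per replicate number, the line is the group mean and the bar beside it the SD (n = 3). Replicate 3 of the RT control lies far above the other 5 libraries for *Hsp83* (4113 CPM), *DnaJ-1* (1123 CPM) and *stv* (1034 CPM), and the Dicer2 25C points lie above the RT points for *Hsc70-1*.

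The Hsp70 cognates held both the highest and the lowest level of the 10 genes by group mean. To compare genes, CPM were divided by the length of all annotated exons of the gene. *Hsc70-4* (FBgn0266599, chromosome 3R from 15242687 to 15246614, plus strand, all positions being those of BDGP6.54), the main Hsp70 of the cytosol, which also strips clathrin from vesicles, was at 989 ± 136 CPM per kb in the RT control and 725 ± 33.6 CPM per kb in the Dicer2 25C control (SD, n = 3 each). It ranked 75th in the RT control and 85th in the Dicer2 25C control of 9976 tested genes with a length. *Hsc70-3* (FBgn0001218, chromosome X from 11801696 to 11807117, minus strand), the Hsp70 of the endoplasmic reticulum known as BiP in mammals, was at 144 ± 36.5 CPM per kb in the RT control and 112 ± 5.72 CPM per kb in the Dicer2 25C control. *Hsc70-5* (FBgn0001220, chromosome 2R from 14252598 to 14256192, minus strand), the Hsp70 of mitochondria, was at 114.9 ± 9.9 CPM per kb in the RT control and 92.8 ± 5.09 CPM per kb in the Dicer2 25C control. *Hsc70-1* (FBgn0001216, chromosome 3L from 13974061 to 13977761, plus strand), a cytosolic relative of *Hsc70-4*, was the lowest of the 10, at 11.9 ± 1.42 CPM per kb in the RT control and 17.0 ± 0.766 CPM per kb in the Dicer2 25C control. Of the summed CPM of the 4 cognates, *Hsc70-4* took between 73.5% and 78.5% in the RT control libraries against 72.5% to 74.2% in the Dicer2 25C control libraries.

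The chaperones outside the Hsp70 family lay between these extremes by group mean. *Hsp83* (FBgn0001233, chromosome 3L from 3192969 to 3197059, plus strand), the cytosolic Hsp90 of the fly, was at 391, 405 and 1390 CPM per kb in RT control replicates 1, 2 and 3 and at 304, 293 and 370 CPM per kb in the Dicer2 25C control. In RT control replicate 3 it passed *Hsc70-4*, with a ratio per kb of 1.29 there, against 0.37 and 0.486 in the other RT control libraries and 0.435, 0.411 and 0.485 in the Dicer2 25C control libraries. *Hsp60A* (FBgn0015245, chromosome X from 11108482 to 11112308, plus strand), the barrel-shaped chaperonin of mitochondria, was at 176 ± 6.33 CPM per kb in the RT control and 153 ± 2.84 CPM per kb in the Dicer2 25C control (SD, n = 3 each).

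The co-chaperones *DnaJ-1*, *stv* and *Hop* lay below *Hsc70-4* per kb in each of the 6 libraries. *DnaJ-1* (FBgn0263106, chromosome 3L from 5750029 to 5752189, minus strand), a J-domain partner of Hsp70 also called Hsp40, was at 100.2, 113 and 520 CPM per kb in RT control replicates 1, 2 and 3 and at 74.4, 70.1 and 91.1 CPM per kb in the Dicer2 25C control. *stv* (FBgn0086708, chromosome 3L from 13477541 to 13483515, plus strand), the BAG-domain co-chaperone starvin, was at 52.5, 51.9 and 282 CPM per kb in the RT control and at 54.2, 53.2 and 55.6 CPM per kb in the Dicer2 25C control. *Hop* (chromosome 2L from 295122 to 297449, plus strand), the protein that holds Hsp70 and Hsp90 together, was at 36.0 ± 6.77 CPM per kb in the RT control and 28.5 ± 1.63 CPM per kb in the Dicer2 25C control. *Hsf* (FBgn0001222, chromosome 2R from 18130303 to 18134634, minus strand) was at 25.5 ± 1.43 CPM per kb in the RT control and 24.0 ± 0.795 CPM per kb in the Dicer2 25C control.

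In the Dicer2 25C control the order of levels per kb was *Hsc70-4*, *Hsp83*, *Hsp60A*, *Hsc70-3*, *Hsc70-5*, *DnaJ-1*, *stv*, *Hop*, *Hsf* and *Hsc70-1*. Of the neighbours in that order, only *Hsc70-5* and *DnaJ-1* had ranges that overlapped over the 3 libraries. In the RT control *DnaJ-1* moved above *Hsp60A* by its mean and *stv* above *Hsc70-5*, and the ranges of all neighbours from *Hsc70-4* down to *Hsc70-5* overlapped. Both moves came from replicate 3, since in RT control replicates 1 and 2 *DnaJ-1* was below *Hsp60A* (181 and 169 CPM per kb) and *stv* below *Hsc70-5* (119 and 104 CPM per kb). *Hop*, *Hsf* and *Hsc70-1* kept the last 3 places there, with no overlap between neighbours. No member shares exon bases with another gene of its strand in the annotation, and *Hsp83* shares 15 bases of its 2960 with a gene of the opposite strand (*CG14966*). The Hsp70 cognates are related in sequence, and reads that align to several places were counted apart from the genes. Such alignments numbered 69361668 in Dicer2 25C control replicate 1 and between 7164088 and 8454145 in the other libraries, and their part in the levels was not tested.

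**Figure D2:**
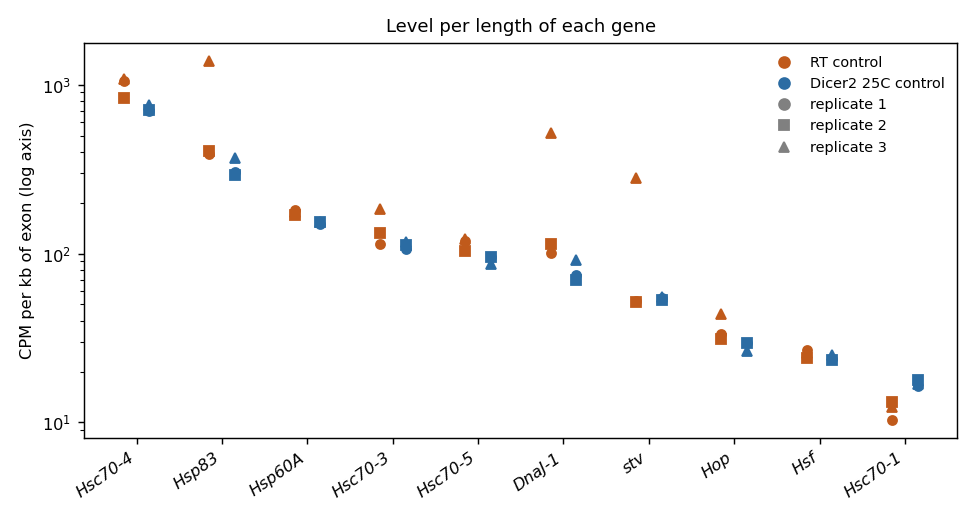
Level per length in CPM per kb of exon (vertical log axis) for each gene, ordered by the mean of the Dicer2 25C control. Each point is 1 library of the RT control or the Dicer2 25C control. *Hsc70-4* leads and *Hsc70-1* closes the order in both groups, and replicate 3 of the RT control lifts *Hsp83*, *DnaJ-1* and *stv* out of it.

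The genes with the swing in RT control replicate 3 were a J-domain protein, a BAG-domain protein and Hsp90. *DnaJ-1* was at 217, 245 and 1123 CPM in RT control replicates 1, 2 and 3 and at 161, 152 and 197 CPM in the Dicer2 25C control. All 3 RT control libraries lay above all Dicer2 25C control libraries, with replicate 3 at 4.87 times the mean of replicates 1 and 2. *stv* was at 193, 191 and 1034 CPM in the RT control and at 199, 195 and 204 CPM in the Dicer2 25C control. Its RT control replicates 1 and 2 lay just below the whole Dicer2 25C control, and replicate 3 was 5.39 times their mean. *Hsp83* was at 1156, 1198 and 4113 CPM in the RT control and at 899, 867 and 1095 CPM in the Dicer2 25C control, with replicate 3 of the RT control at 3.49 times the mean of replicates 1 and 2.

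Set against all genes tested, these 3 were near the top in the span of the RT control libraries. That span rests on the same library that set them apart, so it is no separate support. After 0.5 was added to each CPM and log2 taken, the RT control libraries spanned 2.44 units for *stv*, 2.37 for *DnaJ-1* and 1.83 for *Hsp83*, and a span as wide was seen at 0.442%, 0.452% and 0.913% of genes. A span over 1 unit was seen at 3.5% of all genes in the RT control and at 2.79% in the Dicer2 25C control, where no member passed it and the widest was *DnaJ-1* at 0.38. Replicate 2 of the RT control, in which *Hsp26* was 21.5 times as high as in replicate 1, was 1.13 times replicate 1 for *DnaJ-1*, 1.04 times for *Hsp83* and 0.989 times for *stv*.

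A smaller lift in the same library was measured at *Hsc70-3* and *Hop*. *Hsc70-3* was at 411, 474 and 662 CPM in RT control replicates 1, 2 and 3 and at 380, 405 and 421 CPM in the Dicer2 25C control, so that replicate 3 was 1.498 times the mean of replicates 1 and 2, a ratio reached by 2.11% of genes. *Hop* was at 67.6, 62.7 and 88.5 CPM in the RT control and at 59.5, 59.6 and 53.9 CPM in the Dicer2 25C control, with a ratio of 1.36 that 3.47% of genes reached. For the remaining members the ratio lay between 1.01 (*Hsp60A*) and 1.14 (*Hsc70-4*). Over all genes tested its median was 0.992. *Hsf* itself was at 77.6, 69.5 and 75.4 CPM in the RT control and at 69.4, 68.0 and 72.5 CPM in the Dicer2 25C control. Its message in RT control replicate 3 thus lay between replicates 1 and 2, and above each library of the Dicer2 25C control.

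**Figure D3:**
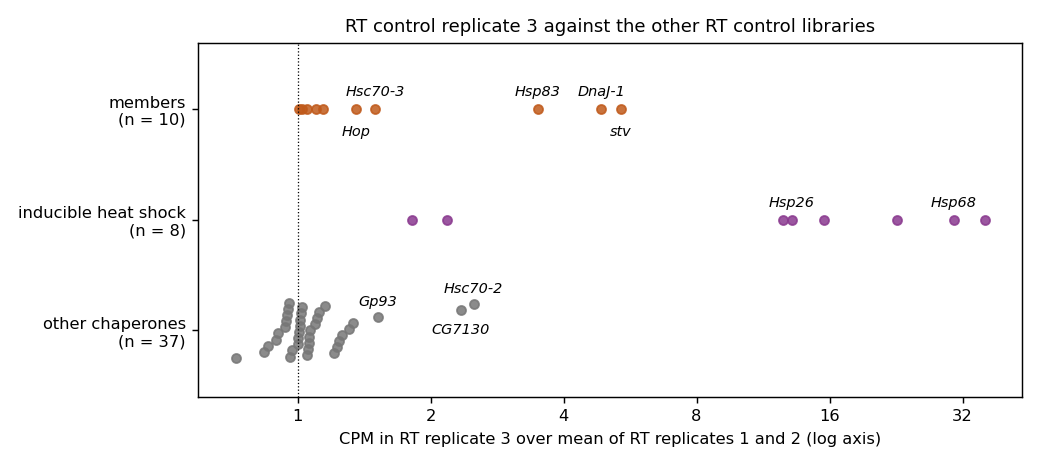
CPM in RT control replicate 3 over the mean CPM of RT control replicates 1 and 2 (horizontal log axis). Each point is 1 gene: the 10 members, the 8 inducible heat shock genes and the 37 other chaperone genes that passed the expression filter. Members reach 5.39 (*stv*), while *Hsp68* stands at 30.6 and most other chaperone genes stand near 1.

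The genes whose levels ran most like these were looked up over the 6 libraries by Pearson's r of log2 CPM, as a description with no test, and again without RT control replicate 3. For *DnaJ-1* the closest of 10186 genes was *Hsp83* (r = 0.999), and *Hsp83* had *DnaJ-1* as its closest. Without RT control replicate 3 that r was 0.983 over 5 libraries. The next for *DnaJ-1* were *CG5290* (r = 0.981, or 0.959 without that library) and *Trxr1*, a thioredoxin reductase gene (0.978, or 0.520). For *stv* the first was *Ubi-p63E*, a polyubiquitin gene (r = 0.992, or -0.29 without that library), followed among named genes by *Trxr1* (0.982, or -0.80). *Hsp83* had *Trxr1* (0.979, or 0.491) and *ref(2)P*, the p62 autophagy receptor (0.979, or 0.845) after *DnaJ-1*. *stv* and *DnaJ-1*, with r = 0.966 over 6 libraries, had r = -0.43 without RT control replicate 3.

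The groups were then compared with each other. The study asked for an adjusted p under 0.05 together with a log2 fold change past 1 in either direction. By that rule edgeR's quasi-likelihood test called 0 of the 10 members, against 2.82% of all genes (1.3% upward and 1.52% downward), and DESeq2 called 0 as well. At an unadjusted p under 0.05 there were 6 members, against 30.7% of all genes. That count was 2 without RT control replicate 3 (24.0% of all genes), 3 without Dicer2 25C control replicate 1 (22.4%) and 2 without Dicer2 25C control replicate 2 (21.2%). By the adjusted p alone, 1 member passed, against 10.1% of all genes. The median log2 fold change of the members was 0.35, RT control over Dicer2 25C control, and that of all genes -0.0038. Without RT control replicate 3 the median of the members was 0.19 and that of all genes -0.0017. All RT control libraries lay above all Dicer2 25C control libraries for 6 members (19.5% of all genes) and below them for 1 (18% of all genes). Without RT control replicate 3 these were 6 and 2 members, against 22.0% and 20.9% of all genes. With CPM scaled by total counts and no TMM factor these were 4 and 1 members, against 11.2% and 29.7% of all genes.

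*Hsc70-1* was the member that fell. It was at 28.1, 35.6 and 33.4 CPM in RT control replicates 1, 2 and 3 and at 44.4, 48.5 and 46.0 CPM in the Dicer2 25C control. The groups did not overlap, and each rested on at least 848 reads per library. The adjusted p of edgeR's quasi-likelihood test ran from 0.023 to 0.13 with each library left out, and was above 0.05 without replicate 2 or 3 of the RT control (0.062 and 0.091) and without replicate 1 or 2 of the Dicer2 25C control (0.086 and 0.13), with the log2 fold change between -0.59 and -0.42 throughout. Without replicate 3 of the Dicer2 25C control, which stood apart in its marker sums, the adjusted p was 0.038 in that test of edgeR.

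*Hsc70-4* went the other way. It was at 2868, 2261 and 2929 CPM in the RT control and at 1899, 1936 and 2072 CPM in the Dicer2 25C control, without overlap. The log2 fold change was 0.45 (standard error 0.14, 95% interval from 0.12 to 0.77 before adjustment), with an adjusted p of 0.082 in edgeR's quasi-likelihood test, 0.0495 in its likelihood ratio test and 0.0037 with DESeq2. *Hsc70-5* was at 346, 303 and 358 CPM in the RT control and at 280, 279 and 254 CPM in the Dicer2 25C control, also without overlap (log2 fold change 0.31, standard error 0.093, adjusted p = 0.079 in the quasi-likelihood test of edgeR and 0.018 with DESeq2). *Hsp60A*, the other mitochondrial chaperone, was at 450, 419 and 437 CPM in the RT control and at 371, 383 and 383 CPM in the Dicer2 25C control (log2 fold change 0.20, standard error 0.073, adjusted p = 0.12 in the same test of edgeR and 0.02 with DESeq2). All 3 passed with DESeq2 and none passed edgeR's quasi-likelihood test. The share of all genes passing DESeq2 by the adjusted p alone was not counted. By the study's rule DESeq2 called 470 genes, against 287 in that test of edgeR, so this count is not read as a result about the members. Without RT control replicate 3 the adjusted p of these 3 members in edgeR's quasi-likelihood test was between 0.218 and 0.284.

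For the genes with the swing, the difference between the groups was smaller without RT control replicate 3. The log2 fold change of *DnaJ-1* was 1.64 with all libraries (95% interval from 0.12 to 3.16, adjusted p = 0.14 in the quasi-likelihood test of edgeR) and 0.44 without that library (interval from 0.097 to 0.79, adjusted p = 0.14). That of *Hsp83* was 1.18 (interval from -0.026 to 2.38, adjusted p = 0.17) and 0.31 without it (interval from -0.069 to 0.68, adjusted p = 0.28). That of *stv* was 1.24 (interval from -0.34 to 2.82, adjusted p = 0.25) and -0.055 without it (interval from -0.26 to 0.15, adjusted p = 0.72), so its direction turned. *Hsc70-3* had 0.36 (adjusted p = 0.22) and 0.14 without that library, and *Hop* 0.34 (adjusted p = 0.15) and 0.18. *Hsf* had 0.084 (interval from -0.077 to 0.24, adjusted p = 0.44), and turned to -0.016 when no TMM factor was used.

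**Figure D4:**
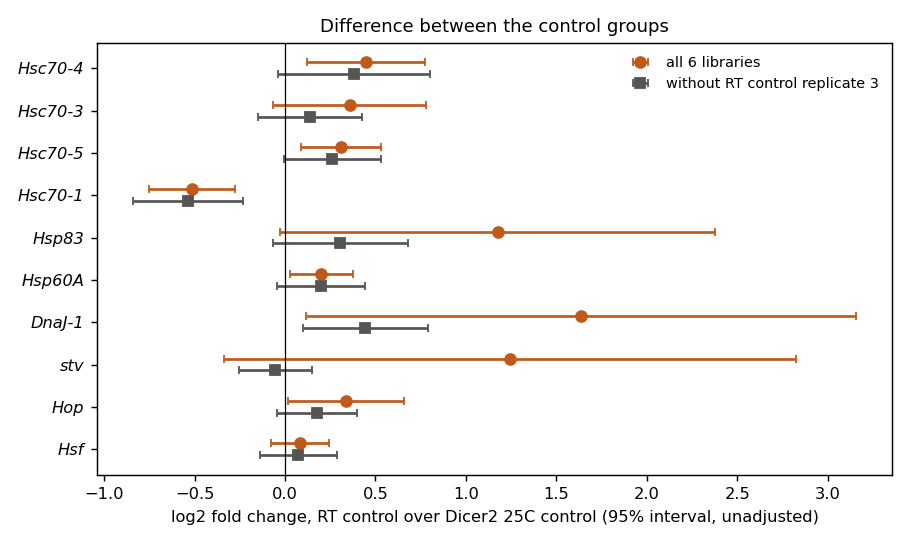
Log2 fold change of each gene, RT control over Dicer2 25C control (horizontal axis), from edgeR's quasi-likelihood fit, with bars for the unadjusted 95% interval. Circles use all 6 libraries and squares leave out RT control replicate 3. *DnaJ-1*, *Hsp83* and *stv* move toward 0 without that library (to 0.44, 0.31 and -0.055), and *Hsc70-1* stays at -0.54.

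Other genes of the folding system were set beside the members. Of 46 listed, 42 had a row and 37 passed the filter. In edgeR's quasi-likelihood test 1 of the 37 rose at an adjusted p under 0.05, against 5.28% of all genes, and 1 fell, against 4.83%, with a median log2 fold change of 0.058. *CG32640*, listed as a J-domain gene, rose by 2.64 on the log2 scale (standard error 0.47, adjusted p = 0.024 in that test of edgeR), at levels of 0.549, 0.711 and 0.457 CPM in the RT control and 0.157, 0.0392 and 0.0853 CPM in the Dicer2 25C control. These are 3, 1 and 2 reads in the Dicer2 25C libraries, and *CG32641*, the gene numbered next to it and chosen after its values were seen, with the same exon length of 0.466 kb, had a log2 fold change of -0.035. How reads divide between these genes was not tested. *HIP*, a gene named for the Hsp70-interacting protein, was at 12.2, 10.9 and 11.6 CPM in the RT control and at 15.7, 15.8 and 16.2 CPM in the Dicer2 25C control (log2 fold change -0.46, standard error 0.076, adjusted p = 0.021 in the same test of edgeR). Both calls were lost without replicate 2 or 3 of the RT control and without replicate 1 or 2 of the Dicer2 25C control, with adjusted p between 0.058 and 0.11. Its relative *HIP-R*, likewise chosen after its values were seen, had 0.36 (adjusted p = 0.24 in the same test of edgeR).

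The swing of RT control replicate 3 was then looked for in these other genes. That library was the highest for 13 of the 37, against 12.5% of all genes, and none was more than 2 times every other library there, against 0.128% of all genes. The ratio of replicate 3 to the mean of the other RT control libraries was over 1.5 at 3 of them, against 2.1% of all genes, and these, like the other genes of this paragraph, were named after their values were seen: *Hsc70-2*, an Hsp70 cognate gene at most at 1.005 CPM in any library (2.50), *CG7130*, listed as a J-domain gene (2.34), and *Gp93*, the Hsp90 of the endoplasmic reticulum (1.52). *Gp93* was at 192, 210.1 and 306 CPM in RT control replicates 1, 2 and 3 and at 190, 211 and 216 CPM in the Dicer2 25C control. The 7 subunits of the cytosolic chaperonin CCT that were measured had log2 fold changes between -0.12 and 0.35 and none passed the test of edgeR. *Hsc70Cb*, the Hsp110 that exchanges nucleotide on Hsp70, was at 191, 187 and 235 CPM in the RT control and at 166, 167 and 157 CPM in the Dicer2 25C control. *Droj2*, another J-domain gene, was at 234, 217 and 247 CPM per kb in the RT control and at 225, 228 and 218 CPM per kb in the Dicer2 25C control, above *DnaJ-1* per kb in every library but RT control replicate 3.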

How the data were processed

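RNA from female fly heads was sequenced by the authors with a stranded mRNA kit, in 3 biological replicates per group. After trimming with Trimmomatic, the authors aligned reads by TopHat2 to the genome and transcriptome of release 6.08 and deposited the HTSeq (version 0.6.1) count of reads per gene, neither normalized nor pooled. The version of TopHat2 is 2.1.0 in the submitters' processing notes, and the methods name another. The strand setting of the counting is not given in the sources used here. Reads on no gene came to between 3.16% and 4.76% and ambiguous reads to between 2.36% and 3.62%, and both stayed out of totals and tests. Floors of 3 counts, taken from total counts without the TMM factor, lay between 0.0706 and 0.161 CPM and cover counting error only.

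CPM were scaled by TMM, and the RT control was tested against the Dicer2 25C control by edgeR's quasi-likelihood test (version 4.0.16, R 4.3.3) over 10187 genes left by its expression filter, with Benjamini-Hochberg adjustment over all of them. Standard errors are the size of the log2 fold change divided by the root of the F statistic, and intervals are unadjusted. The fit was tested on simulated data that held no outlying library, so that test does not bear on results that rest on RT control replicate 3. Alternatives were DESeq2 (version 1.42.0), the likelihood ratio test, other normalizations, filters and thresholds, the replicate number as a block and each library left out. The overlap counts, medians, counts by unadjusted p and intervals without a library were added after seeing the data. Names, positions and exon lengths come from the BDGP6.54 annotation. Members and lists were chosen with earlier results of these data known. Genes named were all members, *Dcr-2*, *Hsp26*, *Hsp68*, the other chaperone genes with an adjusted p under 0.05 and the 3 genes most like each of the 3 members with the widest range, apart from 1 that has no name in the tables used. Others are said to be chosen after their values were seen.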

Additional observations from a re-analysis of the deposited data

How the results depend on the processing

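Over all genes the 287 calls became 495 with the likelihood ratio test of edgeR, 470 with DESeq2, 1030 by the adjusted p alone and 45 at an adjusted p under 0.01. With a library left out they ran from 33 to 438, with 96 without RT control replicate 2, 54 without RT control replicate 3, 79 without Dicer2 25C control replicate 1, 33 without Dicer2 25C control replicate 2 and 438 without Dicer2 25C control replicate 3. Of the 10 members, 1 passed by the adjusted p in the main test, against 10.1% of all genes. There were 2 with the likelihood ratio test, 4 with DESeq2 and between 0 and 1 with a library left out. The share of all genes by the adjusted p alone was not counted in these other settings. Calls over all genes also rose with both tests, so these counts are not read as results about the members. The count of members whose groups did not overlap, 7, ran from 7 to 9 with a library left out, while the share of all genes also rose. Without RT control replicate 3 there were 6 members above and 2 below, against 22.0% and 20.9% of all genes. Without Dicer2 25C control replicate 3 there were 8 above and 1 below, against 29.2% and 28.7%. With all libraries these shares were 19.5% and 18%. Of the other chaperone genes 2 passed, with 4 under upper quartile scaling, 5 under total counts, 1 with at least 10 counts in every library, 6 with DESeq2 and between 0 and 5 with a library left out. For these settings too, the share of all genes by the adjusted p alone was not counted. The log2 fold change of *stv* ran from -0.055 (without RT control replicate 3) to 1.62 with a library left out, and that of *Hsf* to -0.016 under total counts, a scaling that moved the median of all genes by -0.097.

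No pairing by replicate number was seen. The deviations of same-numbered libraries had correlations of -0.11, -0.013 and -0.0013, and those of different-numbered libraries lay between -0.12 and 0.13. Deviations taken within groups of 3 libraries are tied to each other, so these values do not settle whether samples were paired. With the replicate number as a block there were 91 calls over all genes by the study's rule. At an unadjusted p under 0.05 there were 3 members, against 27.4% of all genes. By the adjusted p there were 0 members and 0 other chaperone genes (*Hsc70-1* at 0.061 from edgeR's quasi-likelihood test).

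The groups have 3 libraries each, and which part of a difference comes from Dicer2, temperature, driver stock or depth cannot be told apart.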
